A study of Sus scrofa with 12 samples.

Results

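IPEC-J2 is an established epithelial cell line from the pig small intestine. The cultures received either nothing or 5 µmol/L deoxyshikonin, a naphthoquinone of plant origin, and their RNA was sequenced at 6 h and at 24 h in 3 libraries per group. The 4 groups are therefore untreated cells at 6 h, treated cells at 6 h, untreated cells at 24 h and treated cells at 24 h, 12 libraries in all, of 1 cell line and 1 dose. The labels do not say whether the 3 libraries of a group came from separate cultures, so every p-value measures the spread between these libraries, which may be technical. Described here are the genes that lay lower in treated than in untreated cells at both times. They were chosen by their measured change in the same libraries: an Ensembl identifier, a mean of at least 1 TPM (a transcript level scaled to gene length and to the library total) over the 12 libraries, and a group difference in mean log2(TPM + 1) of at most -1 at 6 h and at 24 h. This rule left 143 of the 11366 Ensembl genes that met the TPM minimum, and the deposited table holds 32518 identifiers. A symbol was found for 129 of the 143. All 143 passed the minimum on low values by construction, and 5 of them had a mean under 1 TPM over the 6 treated libraries. The changes at 6 h and at 24 h are given as a description, with no test.

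A dividing cell copies its DNA in S phase and separates the copies in mitosis. Transcription of the genes for S phase is driven by E2F factors, and that of the genes for mitosis by MYBL2 and FOXM1, so many of these genes rise and fall together with the share of cells in division. In a culture, their summed level reflects both how many cells are cycling and how much RNA each of them holds, and bulk RNA cannot tell fewer cells of a kind from less RNA per cell. Motile cilia are the beating, microtubule-based projections of airway, oviduct and ependymal cells, and FOXJ1 is the transcription factor that switches their genes on. Intestinal enterocytes carry microvilli, not motile cilia.

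TPM carries no sequencing depth, so the depth of the libraries is unknown and no detection limit can be given. Of the epithelial markers, EPCAM was at 371 TPM, CDH1 (E-cadherin) at 528 TPM and KRT8 (keratin 8) at 2166 TPM in untreated cells at 6 h on average. The enterocyte and goblet cell markers KRT20, CDX2, FABP2 and MUC2 had group means of at most 0.0567 TPM. The leukocyte marker PTPRC reached a group mean of 0.0267 TPM at most, and the 10 leukocyte markers together held 29.62 to 59.68 TPM, of which LYZ (lysozyme) held group means of 29.2 to 49.4 TPM. The summed level of the 8 fibroblast markers in the table was 9.53 to 10.04 TPM in untreated and 5.87 to 6.94 TPM in treated cells at 6 h, and 7.83 to 8.72 TPM and 3.45 to 3.99 TPM at 24 h. The part of these markers in the results below was not tested. Over all 11897 genes tested the median change at 6 h was -0.20, and rescaling the libraries by the median of ratios moved it by 0.13 to -0.07. With that rescaling the rule gave 139 genes, of which 128 were among the 143.

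**Figure D1:**
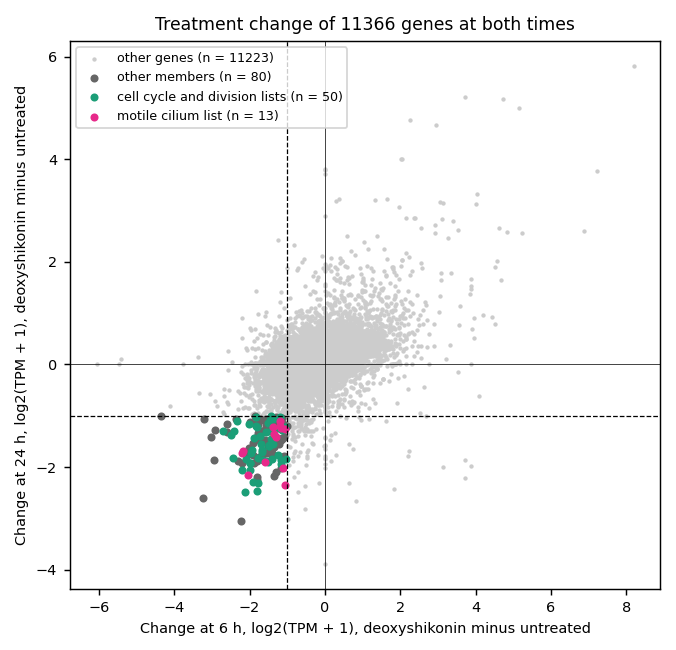
Each point is 1 of the 11366 genes. The x axis is the change at 6 h and the y axis the change at 24 h, both as treated minus untreated group means of log2(TPM + 1), and the dashed lines are the thresholds of -1. The 143 coloured genes are those at or below both lines, with 50 in cell cycle and division lists, 13 in a motile cilium list and 80 in neither.

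Across the 143 genes the median change was -1.56 at 6 h and -1.43 at 24 h, against -0.20 and 0.09 over all genes tested. The lowest value was -4.35 at 6 h (METTL23) and -3.05 at 24 h (PSMC3IP). Both rest on a listed 0 in the 3 treated libraries of that time, which can be a failed estimate. A change of at most -2 was reached by 27 genes at 6 h, by 16 at 24 h and by 5 at both times. The difference was larger at 6 h for 78 genes and larger at 24 h for 65. Each treated library lay below every untreated library of the same time for 139 genes at 6 h and 138 at 24 h. Over all genes tested, 48.7% were called lower and 26.6% higher at 6 h, and 18.1% lower and 32.2% higher at 24 h (limma, adjusted p under 0.05). After rescaling by the median of ratios these shares were 41% and 34.3% at 6 h and 24.7% and 24.3% at 24 h. These shares are of calls, and non-overlapping genes were not counted over all genes. Since the rule also used these contrasts, nothing is read from the counts of non-overlapping genes. Together the 143 genes held 6565 to 6810 TPM in the untreated libraries at 6 h and 2136 to 2442 TPM in the treated ones. At 24 h they held 4435 to 4729 TPM in untreated and 1440 to 1679 TPM in treated libraries. Their median level in untreated cells, 16.6 TPM, lay near that of all 11366 genes, 16.0 TPM.

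The genes nearest the thresholds show how the edge of the set falls. Just inside at 6 h were RAB7B (-1.003) and NDC80 (-1.021), and just outside were CFAP210 (-0.999) and BEX4 (-0.991). Just inside at 24 h were MYBL2 (-1.002) and METTL23 (-1.004), and just outside were NUP210 (-0.994) and CLSPN (-0.986). CFAP210, BEX4, NUP210 and CLSPN met the other threshold, so the set has no gap at its border.

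The change was also read in libraries whose own change had no part in choosing genes. They still counted in the TPM minimum, which used all 12 libraries. The libraries of a group may also be technical repeats, so agreement between them is no independent support. When the rule was applied to replicates 2 and 3 only, it gave 159 genes. In the left-out libraries numbered 1, treated lay below untreated at both times for 153 of these 159, and by at least 1 log2 unit at both times for 109, with medians of -1.49 at 6 h and -1.25 at 24 h. Leaving out replicate 2 gave 136 genes, of which 131 lay below at both times in the left-out libraries and 124 by at least 1 log2 unit. Leaving out replicate 3 gave 146 genes, of which 140 and 114 did so. Among all 11366 genes, 1.2%, 1.5% and 1.31% reached -1 at both times in the libraries numbered 1, 2 and 3. With 1 library per group these are values without a test.

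**Figure D2:**
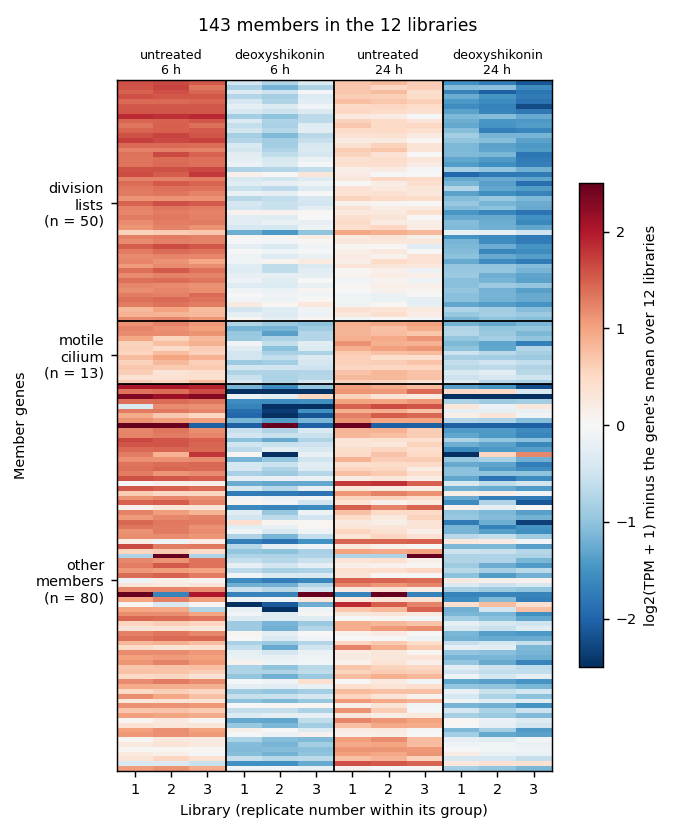
Rows are the 143 genes, columns the 12 libraries in their 4 groups, and colour is log2(TPM + 1) minus the gene's mean over the libraries. Both treated groups are bluer than the untreated group of the same time in nearly every row, the division rows are reddest in untreated cells at 6 h, and a few rows among the other genes change colour within a group.

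The largest recognisable block was the machinery of mitosis. Of the cell cycle and DNA replication list, 52 of 58 genes were in the table, 50 were tested and 25 met the rule. These 25 had medians of -1.83 at 6 h and -1.82 at 24 h. The cyclins B1 and B2 are the partners of the kinase CDK1 whose activity drives a cell into mitosis. CCNB1 was at 137.56, 138.05 and 137.15 TPM in untreated and at 39.48, 36.13 and 43.45 TPM in treated libraries at 6 h. At 24 h it was at 64.2, 66.72 and 64.07 TPM in untreated and at 15.08, 13.57 and 8.96 TPM in treated libraries. The groups were apart at both times, and the lowest level was that of treated cells at 24 h. The change was -1.77 (SE 0.14) at 6 h and -2.31 (SE 0.14) at 24 h. CDK1 itself changed by -1.67 and -1.66, and CCNB2 by -1.99 and -1.92. CCNB3, the third B-type cyclin, changed by -1.56 and -1.31.

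Regulators around CDK1 had changes of similar size. PLK1, the kinase that acts from mitotic entry to cytokinesis, was at 33.8, 37.42 and 34.75 TPM in untreated and 8.07, 6.79 and 10.12 TPM in treated cells at 6 h. Its changes were -1.98 at 6 h and -1.93 at 24 h. CDC20, which activates the anaphase-promoting complex, was at 125.94, 126.36 and 123.92 TPM in untreated and at 31.56, 28.29 and 32.23 TPM in treated libraries at 6 h. It remained at 11.45 to 15.83 TPM in treated libraries at 24 h, against 54.79 to 60.47 TPM in untreated ones. The ubiquitin-conjugating enzyme of that complex, UBE2C, changed by -1.48 and -1.59, its inhibitor FBXO5 by -1.87 and -1.44, and separase, ESPL1, by -1.49 and -1.58. CDC25B, a phosphatase that activates CDK1, differed from the other mitotic genes of the set. It was not lower in untreated cells at 24 h than at 6 h. Its level was 47.03, 48.99 and 50.82 TPM in untreated cells at 6 h and 62.21, 58.93 and 56.08 TPM at 24 h, with changes of -1.84 and -1.19 in treated cells.

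Components of chromosomes and kinetochores, the structures by which chromosomes hold on to the spindle, were lower at both times as well. TOP2A, the topoisomerase that untangles sister DNA molecules, was at 91.42, 94.37 and 86.86 TPM in untreated and at 20.79, 16.91 and 22.7 TPM in treated libraries at 6 h. At 24 h it was at 47.8, 51.95 and 45.56 TPM in untreated and at 9.62, 8.12 and 5.97 TPM in treated libraries. Its changes, -2.13 (SE 0.14) and -2.49 (SE 0.14), made it 1 of the 5 genes at or below -2 at both times. AURKB, the kinase of the chromosomal passenger complex, changed by -2.45 and -1.83. Of its 3 partners, BIRC5 (survivin, -1.17 and -1.95) and CDCA8 (borealin, -1.25 and -1.76) met the rule, while INCENP lay just outside it at 24 h with -1.03 and -0.94. Of the 4 subunits of the Ndc80 complex, which binds microtubules, NDC80 (-1.02 and -1.85), NUF2 (-1.43 and -1.30) and SPC25 (-1.16 and -1.23) met the rule. The fourth, SPC24, had -0.99 and -0.96, so every subunit of both complexes lay at -0.94 or below at each time. CENPF and the motor CENPE both act at the outer kinetochore. CENPF changed by -1.80 and -2.47, and CENPE by -1.07 and -1.21.

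The spindle checkpoint, which delays anaphase until all chromosomes are attached, was less uniform. BUB1B was at 30.82, 29.56 and 29.53 TPM in untreated and at 5.22, 4.83 and 7.2 TPM in treated libraries at 6 h, and at 13.26 to 14.87 TPM and 2.1 to 3.39 TPM at 24 h. Its changes were -2.21 and -2.05. TTK (the kinase MPS1, -1.96 and -1.73), KNTC1 (-1.13 and -1.28) and SPDL1 (-1.20 and -1.03) met the rule too. BUB1 and MAD2L1 did not, since their changes at 6 h were only -0.23 and -0.50, although they reached -1.26 and -1.15 at 24 h. Changes of BUB3 (-0.25 and -0.12) and ZW10 (0.10 and -0.26) were small at both times. Condensin, which compacts mitotic chromosomes, was divided in a similar way. NCAPH (-1.39 and -1.56), NCAPG (-1.46 and -1.08) and NCAPG2 (-1.52 and -1.14) met the rule. The core subunits SMC2 and SMC4 had smaller changes at 6 h, -0.55 and -0.58, than at 24 h, -1.29 and -0.99.

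Of 13 mitotic kinesins, the motors that build the spindle and move chromosomes along it, 10 met the rule. KIF20A, which acts in cytokinesis, was at 61.04, 61.69 and 63.23 TPM in untreated and at 16.54, 12.94 and 18.59 TPM in treated cells at 6 h. At 24 h its levels were 34.28 to 38.37 TPM and 5.49 to 7.64 TPM. KIF11, which pushes the spindle poles apart, changed more at 24 h (-1.86) than at 6 h (-1.17), and KIF23 changed alike at both times (-1.25 and -1.23). The remaining 3, KIF18A, KIF20B and KIF22, had -0.80 to -0.87 at 6 h and -1.22 to -1.72 at 24 h. RefSeq has KIF20A overlapping CDC23, and the counting is not stated to use strand, so some reads may be shared between them. The spindle proteins TPX2 (-1.41 and -1.85) and ASPM (-1.77 and -1.82) completed this group.

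Among genes for DNA replication, the MCM genes and POLE had the larger change at 6 h, while CDC45 and PCLAF did not. The MCM2 to MCM7 proteins form the ring that unwinds DNA at replication forks. MCM3 was at 53.74, 51.53 and 52.93 TPM in untreated and at 9.06, 8.09 and 10.15 TPM in treated libraries at 6 h, a change of -2.42. At 24 h it was at 18.31, 18.44 and 16.26 TPM in untreated and at 7.35, 6.91 and 5.59 TPM in treated libraries, a change of -1.30. Treated cells at 6 h thus held less MCM3 than untreated cells at 24 h. MCM2 changed by -2.32 and -1.11 and MCM5 by -2.02 and -1.17. MCM4 was furthest below at 6 h among the MCM genes, with -2.70, but missed the rule at 24 h with -0.92, as did MCM6 (-1.17 and -0.62) and MCM7 (-1.33 and -0.73). CDC45, which joins the MCM ring at the fork, changed by -1.42 and -1.46, and POLE, the leading-strand polymerase, by -1.79 and -1.22. PCLAF, a partner of the replication clamp and among the most abundant of the 143, was at 211.78 to 250.91 TPM in untreated and 72.72 to 89.85 TPM in treated libraries at 6 h. At 24 h its levels were 70.54 to 84.67 TPM and 17.88 to 20.85 TPM, and its changes were -1.50 and -1.90.

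Transcription regulators of the cell cycle were themselves in the set. FOXM1 was at 12.69, 13.49 and 13.03 TPM in untreated and at 3.1, 2.9 and 3.73 TPM in treated libraries at 6 h, and at 5.59 to 6.53 TPM and 1.41 to 1.83 TPM at 24 h. Its changes were -1.73 and -1.39, and those of MYBL2 were -1.43 and -1.002. E2F1, an activator of S phase genes, changed by -1.39 and -1.06, and the repressor E2F7 by -1.83 and -1.03. E2F8, also a repressor, changed by -2.48 and -1.38. Not every E2F gene was lower. E2F6 was higher in treated cells by 1.51 at 6 h (limma adjusted p = 1.53e-08) and by 0.57 at 24 h (limma adjusted p = 0.000128). UHRF1, which guides maintenance methylation to newly copied DNA, changed by -2.70 at 6 h and -1.30 at 24 h.

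**Figure D3:**
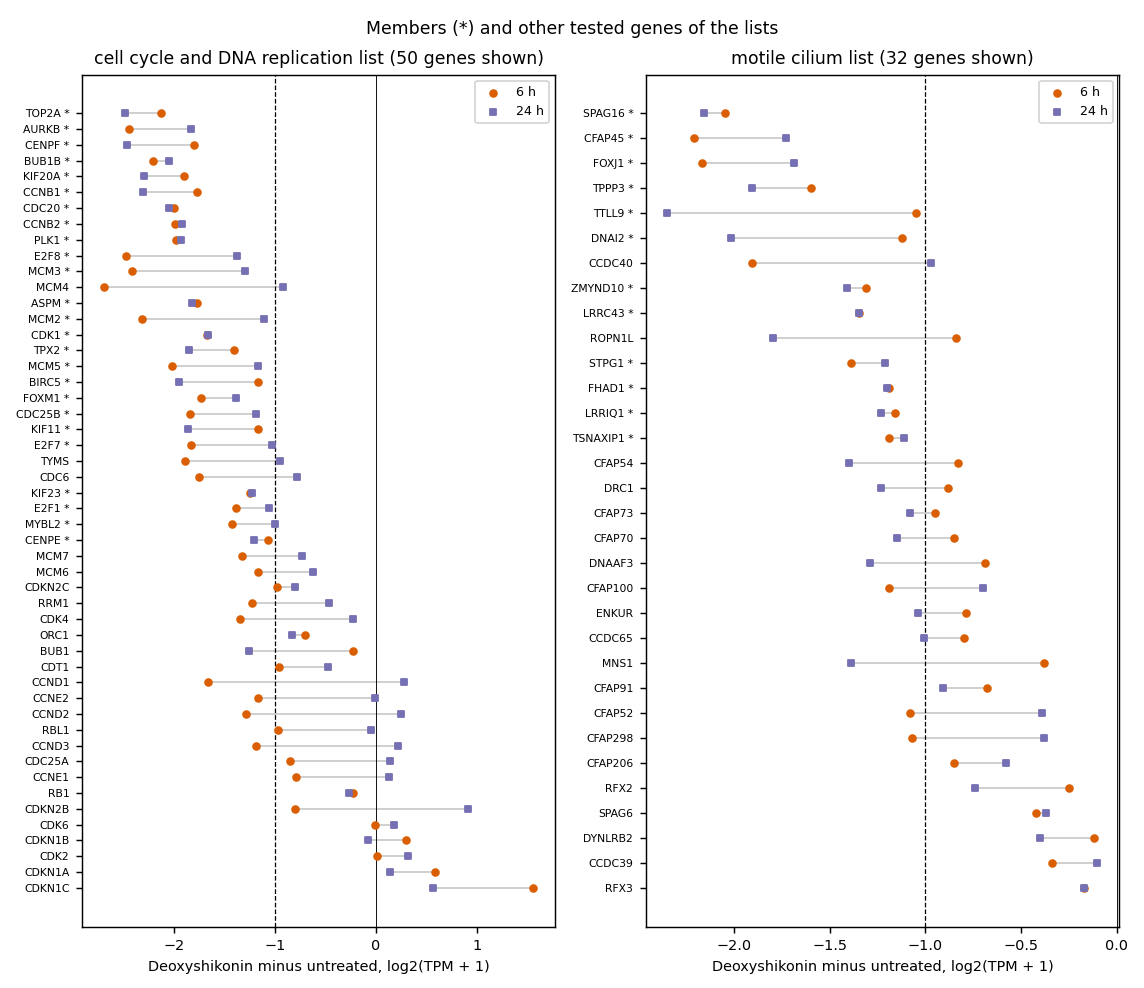
Each row is 1 tested gene of the cell cycle and DNA replication list (left) or of the motile cilium list (right), sorted by its summed change. Circles are the change at 6 h and squares that at 24 h, as treated minus untreated log2(TPM + 1), the dashed line is -1 and asterisks mark genes of the set. Cyclin D genes and CDKN2B have a negative 6 h and a positive 24 h value, while the motile cilium genes shown all lie below 0 at both times.

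The other 25 tested genes of the cell cycle list show where the set ends. At 6 h, 20 of them were called lower, 3 higher and 2 were not called, and at 24 h, 12 were called lower, 7 higher and 6 were not called (limma, adjusted p under 0.05). The shares over all genes tested were 48.7% lower and 26.6% higher at 6 h, and 18.1% lower and 32.2% higher at 24 h. The medians of the 25 genes were -0.97 at 6 h and -0.08 at 24 h. The D-type cyclins, which start a new cycle in response to growth signals, were among those that did not stay low. CCND1 had 190 TPM ± 1.1 (SD, n = 3) in untreated and 59.8 TPM ± 7.68 (SD, n = 3) in treated cells at 6 h, a change of -1.66 (limma adjusted p = 6.18e-09). At 24 h it had 125 TPM ± 4.66 (SD, n = 3) and 151 TPM ± 3.59 (SD, n = 3), a change of 0.28 (limma adjusted p = 0.00959). The kinase inhibitor CDKN1A (p21) was higher at 6 h by 0.58 (limma adjusted p = 1.16e-07), with 124 TPM in untreated and 186 TPM in treated cells. Its change at 24 h was 0.14. CDKN2B (p15) was lower at 6 h, with a change of -0.80 (limma adjusted p = 1.98e-06), and higher at 24 h by 0.91 (limma adjusted p = 3.5e-06). Whole-list counts were 45 lower and 3 higher at 6 h and 37 lower and 7 higher at 24 h. After rescaling by the median of ratios they were 43 and 4 at 6 h and 37 and 4 at 24 h. Of the 50 genes tested 25 are in the set, so these counts are not independent of the rule.

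A second block held genes linked to motile cilia. It was noticed after the values were seen, and a list of 75 motile cilium genes was then written from general knowledge, with the 13 genes of the set among them. FOXJ1 was at 87.78, 88 and 84.81 TPM in untreated and at 19.49, 14.4 and 22.79 TPM in treated libraries at 6 h. At 24 h it was at 70.13, 66.08 and 62.37 TPM in untreated and at 23.19, 19.65 and 17.18 TPM in treated libraries. Untreated cells thus held FOXJ1 RNA at both times, and the ranges of the treated groups overlapped each other but not those of untreated cells. Its changes were -2.17 (SE 0.14) and -1.69 (SE 0.14). SPAG16, a protein of the central pair apparatus of the ciliary axoneme, was at 9.52, 10.44 and 9.35 TPM in untreated and at 1.89, 1.55 and 1.37 TPM in treated cells at 6 h. At 24 h it was at 8.04 to 8.89 TPM and 1 to 1.19 TPM, and its changes were -2.05 and -2.16. CFAP45, which lies inside the axonemal microtubules, changed by -2.21 and -1.73.

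Several cilium genes had the larger difference at 24 h, which was the case for 9 of the 13. TTLL9, a tubulin-modifying enzyme, was at 5.9, 6.87 and 7.66 TPM in untreated and at 3.39, 2.07 and 2.91 TPM in treated libraries at 6 h, and at 7.54 to 9.25 TPM and 0.42 to 1.14 TPM at 24 h. Its change went from -1.05 to -2.35, the widest step in that direction in the set. DNAI2, an intermediate chain of the outer dynein arm that powers the beat, went from -1.12 to -2.02. ZMYND10, needed to assemble dynein arms, had -1.31 and -1.41. TPPP3 (-1.60 and -1.91), LRRC43 (-1.35 and -1.35), STPG1 (-1.39 and -1.21), FHAD1 (-1.19 and -1.20), LRRIQ1 (-1.16 and -1.23) and TSNAXIP1 (-1.19 and -1.11) were further cilium genes of the set. Outside the list, BBS7, a subunit of the BBSome that carries cargo in cilia of all kinds, changed by -1.99 and -1.13, and TMEM107, of the ciliary transition zone, by -1.33 and -1.15.

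Of the 75 listed cilium genes, 67 were in the table and 33 reached the TPM minimum. The 20 tested genes outside the set were called lower in 18 cases at 6 h and in 17 at 24 h, with 0 called higher at either time (limma, adjusted p under 0.05). The shares called lower over all genes tested were 48.7% at 6 h and 18.1% at 24 h. The axonemal ruler protein CCDC40 missed the rule by little at 24 h (-1.91 and -0.97), and its partner CCDC39 had only -0.34 (limma adjusted p = 0.00868) and -0.10 (limma adjusted p = 0.429). RFX3, another ciliary transcription factor, was not called (-0.17 and -0.17). Most of these genes were low, and 9 of the 33 had a mean under 1 TPM in treated libraries. Some thus entered the test through their untreated libraries alone, which favours a call of lower. For that reason, and because the list was written after the values were seen, nothing is read from the counts. With the 13 genes of the set, whose place below the threshold the rule fixed, the list had 31 genes called lower at 6 h and 30 at 24 h, so these counts are not independent of the rule. TSNAXIP1 and CENPT, both in the set, overlap in RefSeq, and LRRC43, LRRIQ1, TPPP3, TTLL9 and ZMYND10 each overlap another gene, so that their reads may be shared.

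**Figure D4:**
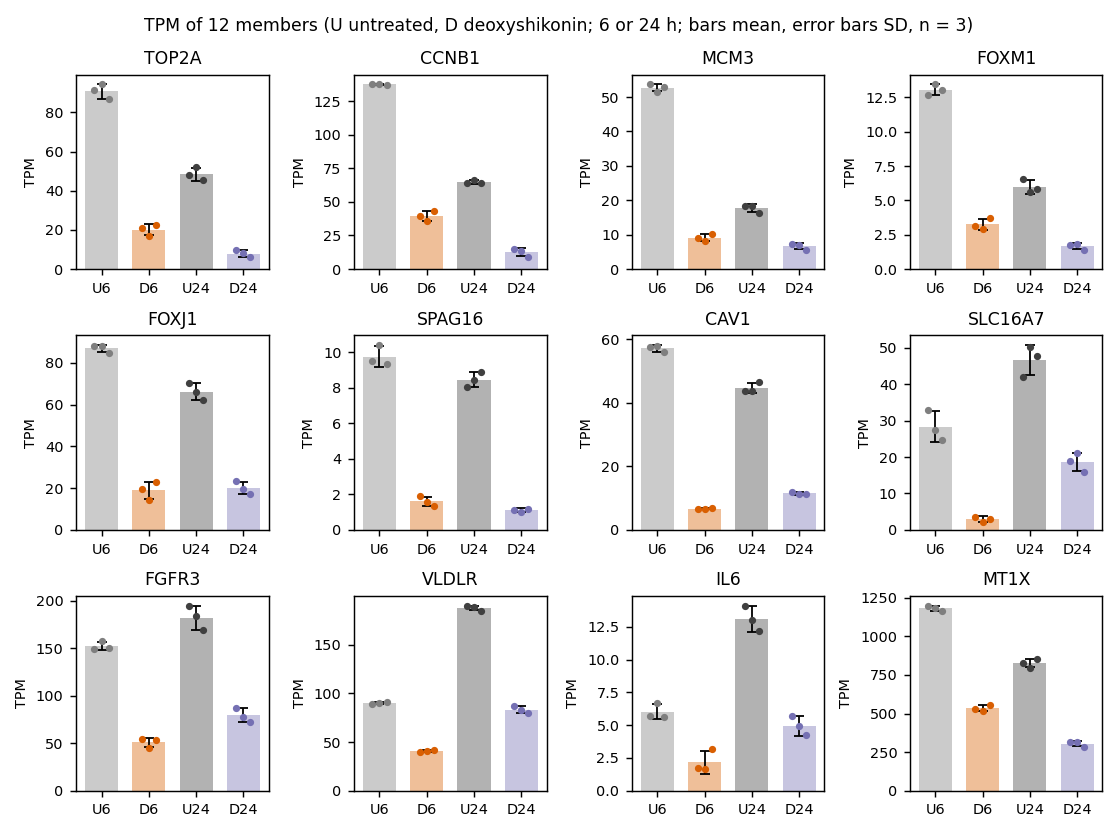
Each panel gives TPM (y axis, from 0) in untreated (U) and deoxyshikonin-treated (D) cells at 6 h and 24 h for 1 of 12 genes of the set. Points are libraries, bars are means and error bars the SD of 3 libraries. TOP2A, CCNB1, MCM3 and FOXM1 are lower in untreated cells at 24 h than at 6 h, VLDLR and IL6 are higher, and treated cells are below untreated cells of the same time in all 12 panels.

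Outside these blocks the set was mixed. CAV1, caveolin 1, the coat protein of the membrane pits called caveolae, had the smallest standard error among the 12 genes with a symbol that were furthest below on average over both times. It was at 57.66, 57.99 and 55.94 TPM in untreated and at 6.61, 6.54 and 6.77 TPM in treated libraries at 6 h, a change of -2.93 (SE 0.04). In the 24 h libraries it was at 43.8, 43.67 and 46.63 TPM in untreated and at 12.01, 11.15 and 11.42 TPM in treated libraries, a change of -1.87 (SE 0.04). SLC16A7, the monocarboxylate transporter MCT2, was at 32.97, 27.49 and 24.61 TPM in untreated and at 3.63, 2.08 and 3.01 TPM in treated libraries at 6 h. At the later time it was at 42.02 to 50.14 TPM and 15.93 to 21.08 TPM. Its change of -2.92 at 6 h was thus reduced to -1.28 at 24 h. H1-3, a linker histone, also had a smaller difference at 24 h than at 6 h. It was at 86.01 to 91.94 TPM against 6.28 to 11.98 TPM at 6 h (-3.20). At 24 h it was at 60.97 to 68.93 TPM against 30.27 to 31.99 TPM (-1.06). Unlike SLC16A7, H1-3 was lower in untreated cells at 24 h than at 6 h. Histone genes of 1 family have near-identical copies, so the reads of H1-3 may be divided between copies.

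Of the 80 genes in neither list, 66 have a symbol, and many of these are also known from dividing cells although no list used here holds them. LMNB1 encodes lamin B1 of the nuclear lamina. It was at 120.72, 111.85 and 106.84 TPM in untreated and at 17.63, 14.82 and 21.59 TPM in treated libraries at 6 h. In untreated libraries at 24 h LMNB1 was at 47.5, 48.65 and 48.79 TPM, and in treated ones at 21.22, 18.14 and 17.4 TPM. Both treated groups were thus at one low level, and the changes were -2.60 and -1.31. CENPA, the histone H3 variant that marks centromeres, changed by -2.06 and -1.77, and its chaperone HJURP by -1.47 and -1.06. Genes of cytokinesis, the final cut between daughter cells, had -1.77 and -1.16 (ANLN, anillin), -1.41 and -1.24 (ECT2), -1.40 and -1.72 (CIT, citron kinase) and -1.71 and -1.07 (CEP55). CDCA5 (sororin), which protects the cohesion of sister chromatids, had -1.54 and -1.18. HMMR, a spindle protein, had -1.81 and -2.25, and the mitotic kinase NEK2 had -1.22 and -1.56. Genes for DNA repair were present too, with -1.13 and -1.45 for FANCD2, of the Fanconi anaemia pathway and -1.70 and -1.29 for the glycosylase NEIL3. These genes were chosen for mention after their values were seen.

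Other genes of the set encode membrane, secreted and metabolic proteins best known for roles outside division. KCNN4, a calcium-activated potassium channel of epithelia, was at 19.89, 18.73 and 18.4 TPM in untreated and at 3.3, 2.62 and 3.3 TPM in treated libraries at 6 h. The 24 h libraries had KCNN4 at 19.82, 17.58 and 17.99 TPM in untreated and at 4.75, 4.49 and 3.59 TPM in treated cells. Untreated levels were near each other at the 2 times, and the changes were -2.30 and -1.89. CALCRL, a receptor of the calcitonin family, changed by -1.79 and -2.19. FST (follistatin), which binds activin, changed by -1.79 and -1.18, and RGMB, a co-receptor for bone morphogenetic proteins, by -1.40 and -1.18. CD70, a ligand of the TNF family, was at 96.38, 98.16 and 100.63 TPM in untreated and at 33.82, 29.22 and 36.31 TPM in treated libraries at 6 h, and its changes were -1.55 and -1.07. AGR2, a protein disulphide isomerase of secretory epithelia, changed by -1.27 and -1.47. GNA15, a G protein subunit, changed by -1.85 and -1.44, and PAOX, a polyamine oxidase, by -1.34 and -1.60. Like CD70 and KCNN4, these genes were picked for mention after the values were seen.

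In the pathway lists, few signalling genes were in the set, as were few of all genes (143 of 11366). A list with 1 or no gene in the set is therefore not read as a scarcity. FGFR3, a receptor for fibroblast growth factors, was the only one of 30 tested growth factor ligands and receptors. It was at 149.23, 157.73 and 150.76 TPM in untreated and at 54.09, 45.21 and 53.5 TPM in treated cells at 6 h. In the 24 h libraries it was at 194.33, 184 and 169.06 TPM and at 87.24, 78.07 and 72.81 TPM, and its changes were -1.57 and -1.19. IL6, the cytokine interleukin 6, was the only one of 24 tested genes of the NF-kappaB and inflammatory list. It was at 5.74, 6.67 and 5.66 TPM in untreated and at 1.7, 1.67 and 3.2 TPM in treated libraries at 6 h, and at 12.2 to 14.13 TPM and 4.22 to 5.72 TPM at 24 h. The same list had 16 genes called higher and 7 lower at 6 h, and 14 higher and 4 lower at 24 h (limma, adjusted p under 0.05), so IL6 went against most of its list. DIAPH3, a formin that nucleates actin filaments, had changes of -1.17 and -1.48. Of 15 pathway lists, 11 had no gene in the set: YAP and TEAD targets, TGF-beta and BMP, Wnt and Notch, cholesterol and lipid synthesis, interferon response, cell junctions, extracellular matrix, immediate early factors, glycolysis and hypoxia, the NRF2 response and chromatin regulators.

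The most abundant gene of the set was MT1X, a metallothionein, one of the small proteins that bind zinc and copper. It was at 1197.54, 1186.7 and 1163.89 TPM in untreated and at 532.25, 517.15 and 555.75 TPM in treated libraries at 6 h. At the later time it was at 829.94, 798.45 and 850.31 TPM and at 317.86, 315.26 and 284.68 TPM. Its changes were -1.14 (SE 0.05) and -1.43 (SE 0.05), and metallothionein genes also have close copies. HMGB2, a chromatin protein, changed by -1.19 and -1.47 from 268.51 to 277.32 TPM in untreated cells at 6 h. VLDLR, the receptor for very low density lipoprotein, was at 89.33, 90.08 and 90.66 TPM in untreated and at 39.84, 40.66 and 41.93 TPM in treated cells at 6 h. In the 24 h libraries it was at 189.34, 189.02 and 184.82 TPM and at 86.88, 82.56 and 79.98 TPM, so that its difference stayed at -1.12 and -1.17 while its level was higher at 24 h in both.

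A few entries rest on irregular values. METTL23, a methyltransferase, was at 17.88, 18.46 and 21.89 TPM in untreated cells at 6 h and was listed at 0 in the 3 treated libraries, while at 24 h it was at 14.57 to 18.72 TPM and 4.62 to 9.42 TPM. PSMC3IP, a recombination protein, was at 26.7 to 30.67 TPM and 4.1 to 8.1 TPM at 6 h, and at 24 h at 6.54 to 8.39 TPM and listed at 0 in the 3 treated libraries. METTL23 overlaps SRSF2 and PSMC3IP overlaps MLX in RefSeq, and an exact 0 can be a failed estimate. B4GAT1, a glycosyltransferase that acts on dystroglycan, was at 4.1, 13.83 and 13.46 TPM in untreated cells at 6 h and at 1.04, 0 and 0 TPM in treated ones. In all, 6 of the 143 had at least 1 library at 0, and 5 of them swung between 0 and at least 20 TPM. In 5 genes a treated library overlapped an untreated one at either time. ITGAL, an integrin of leukocytes, was one of these, with 13.24, 0.07 and 11.23 TPM in treated cells at 6 h and 0.2, 19.32 and 30.99 TPM at 24 h. The other 4 have no symbol. Of 126 genes with a RefSeq entry, 26 overlap another protein-coding gene there.

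The change between 6 h and 24 h within each treatment was not part of the rule and was tested. The same libraries enter both, so a chance deviation that helped to select a gene also enters here. In untreated cells 97 of the 143 genes fell from 6 h to 24 h, 24 rose and 22 did not pass the test (limma, adjusted p under 0.05). Among all 11897 genes tested, 34.2% were called lower and 22.2% higher in this comparison. The median was -0.83 in the set and -0.07 over all genes. In treated cells 87 fell, 32 rose and 24 did not pass, against 28.2% lower and 46.8% higher among all genes, with medians of -0.69 and 0.16. Of the 143, 82 fell in both comparisons and 23 rose in both. The shares of all genes that did so in both were not counted, so nothing is read from these joint counts. After rescaling by the median of ratios, 93 fell and 28 rose in untreated cells, beside 26.2% lower and 30.3% higher over all genes. In treated cells 91 fell and 28 rose, beside 35.5% and 40.1%.

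**Figure D5:**
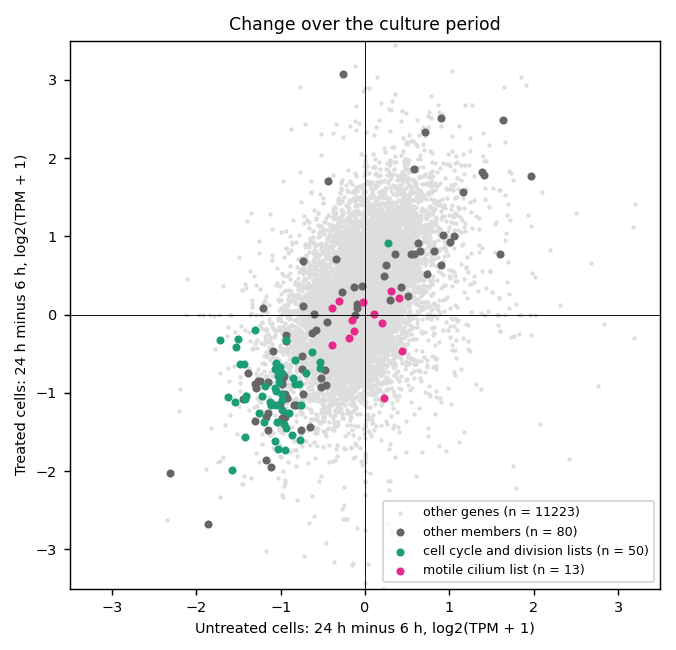
The x axis is the change from 6 h to 24 h in untreated cells and the y axis that in treated cells, in log2(TPM + 1). Grey points are genes outside the set, of which 24 lie beyond the axes, and coloured points are the 143. All but 1 of the 50 division genes lie in the lower left, the 13 motile cilium genes lie nearer the centre, and a group of other genes lies in the upper right.

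The gene groups are given separately, and differences between them were not tested. Of the 50 genes in the cell cycle and division lists, 49 fell in untreated cells, with a median of -1.04, and 47 fell in treated cells (limma, adjusted p under 0.05). The exception in untreated cells was CDC25B, with a change of 0.27 (limma adjusted p = 0.05) that was not called at the threshold. Both rescalings called it higher. Only 25 of these 50 genes are in the cell cycle and DNA replication list. The others come from role lists written after the values were seen. The fall was not particular to the set. Of all 50 tested genes of the cell cycle list, 43 fell and 4 rose in untreated cells, and 30 fell and 11 rose in treated cells. Among genes of the set with a symbol, the lowest values in untreated cells were those of PSMC3IP, UHRF1 and POLE. POLE fell by 1.63 in untreated cells (limma adjusted p = 5.56e-07) and UHRF1 by 1.72 (limma adjusted p = 1.22e-07). PSMC3IP fell by 1.86 (limma adjusted p = 5.85e-06). For 88 of the 143, the order of the group means from the highest was untreated 6 h, untreated 24 h, treated 6 h and treated 24 h. For the remaining 55 genes the order was another one, and for 25 of them it was untreated 24 h, untreated 6 h, treated 24 h and treated 6 h. The rule put untreated above treated cells at each time, so part of every order was fixed. Orders were not counted over all genes, so nothing is read from these counts.

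Of the 13 cilium genes in the set, 3 fell, 2 rose and 8 did not pass in untreated cells, with a median of -0.02. In treated cells 5 fell, 2 rose and 6 did not pass, with a median of -0.07. FOXJ1 fell by 0.39 (limma adjusted p = 0.0346). Over the 33 tested genes of the list, 5 fell and 13 rose in untreated cells. Median-of-ratios rescaling changed these counts to 2 and 18, and quantile normalization to 3 and 15. In treated cells 10 of the list fell and 13 rose, but 10 fell and 8 rose after median-of-ratios rescaling, and 16 fell and 4 rose with quantile normalization, so the prevailing direction in treated cells turned with the scaling. The 80 genes in neither list were mixed: 45 fell, 22 rose and 13 did not pass in untreated cells, and 35 fell, 29 rose and 16 did not pass in treated cells.

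Some genes of the set rose over time, 24 of the 143 in untreated and 32 in treated cells (limma, adjusted p under 0.05). Of all genes tested, 22.2% and 46.8% did so, so rising is not read as a trait of the set. Their place below untreated cells was fixed by the rule. The largest rise in untreated cells was that of RAB7B, a small GTPase of endosomes. It was at 2.31, 2.37 and 1.96 TPM at 6 h and at 12.21, 11.58 and 10.87 TPM at 24 h in untreated cells, a rise of 1.97 (limma adjusted p = 4.65e-08). In treated cells it went from 0.51, 0.51 and 0.8 TPM to 4.22, 4.55 and 4.66 TPM, a rise of 1.77 (limma adjusted p = 1.73e-08). ANKH, a membrane protein that exports pyrophosphate and ATP, rose by 1.41 in untreated cells (limma adjusted p = 9.1e-08) and by 1.79 in treated cells (limma adjusted p = 3.83e-09). PALMD, palmdelphin, rose by 1.38 (limma adjusted p = 2.94e-06) and 1.82 (limma adjusted p = 1.07e-07). GNA15 rose by 1.16 in untreated cells (limma adjusted p = 4.49e-06), and AGR2 by 0.73 (limma adjusted p = 0.00018). VLDLR rose by 1.05 (limma adjusted p = 8.9e-09) and 1.01 (limma adjusted p = 2.24e-09), and IL6 by 1.01 (limma adjusted p = 0.000296) and 0.93 (limma adjusted p = 0.000289). In RAB7B, ANKH, PALMD, VLDLR and IL6 every 24 h library lay above every 6 h library of the same treatment.

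Genes that were lower by 1 log2 unit at a single time give a comparison. At 6 h only, 1047 genes passed the threshold, and at 24 h only, 125 did. In untreated cells the share that fell from 6 h to 24 h was 67.8% of the 143, 41.2% of the 1047 and 21.6% of the 125 (limma, adjusted p under 0.05), with medians of -0.83, -0.16 and 0.66. The share over all genes tested was 34.2%, with a median of -0.07. These differences were not tested, and the choice of the groups by the same libraries bears on them. Genes low only at 24 h had to be high in untreated or low in treated cells at that time. Likewise, the 1047 had to be so at 6 h and the 143 at both times. High untreated values at 6 h favour a fall in untreated cells.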

How the data were processed

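RNA of 12 IPEC-J2 libraries, 3 per group, was measured by the authors, who deposited 1 table of TPM per gene for 32518 identifiers, 610 of them assembled loci without an Ensembl identifier. The submitters' processing notes name fastp, HISAT and RSEM. Versions, genome build and annotation are not given in the sources used here, so no coordinates or sequences are printed. Every column sums to 1000000 within rounding, which fixes each library to the same total and removes depth. Symbols came from a table of Ensembl identifiers (15029 matched), and overlaps between genes from RefSeq for Sscrofa11.1, used for neighbourhood only.

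Values were analysed as log2(TPM + 1), which understates changes of low genes. The linear model of limma 3.58.1, run under R 4.3.3 with moderated variances that follow a trend in level, was fitted to all 4 groups and the 11897 genes with a mean of at least 1 TPM, with Benjamini-Hochberg adjustment over all of them and a two-sided threshold of 0.05. It was tested on simulated data. The genes of the set and all lists were chosen with earlier results of these data known; 9 role lists were written after the values were seen. Of the set, these genes with a symbol were to be named: those in a pathway list, the 12 with the lowest mean change among those with at least 5 TPM in untreated cells, the 6 most abundant, the 3 with the widest step between times in each direction, the 3 with the largest rise and the 3 with the largest fall over time in untreated cells, and those nearest the thresholds. Others, including FOXJ1 and the other genes of role lists, were named after their values were seen. Some genes of the set are not reported here by name. Alternatives covered the pseudocount, filter, scaling, rule threshold, model and left-out libraries.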

Additional observations from a re-analysis of the deposited data

Results flagged for a closer look

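In 2 of the genes that were to be named, every untreated library at 24 h lay below every one at 6 h. Every treated library at 24 h lay above every one at 6 h. Only the genes to be named were searched. PTPRZ1, another gene of the set, had the same pattern, with -0.27 in untreated cells (limma adjusted p = 0.00955) and 0.29 in treated cells (limma adjusted p = 0.00436). CAV1 had a change over time of -0.35 in untreated cells (limma adjusted p = 5.09e-05) and of 0.71 in treated cells (limma adjusted p = 7.14e-08). H1-3 had -0.44 in untreated cells (limma adjusted p = 0.0328) and 1.71 in treated cells (limma adjusted p = 1.52e-06). The fall of H1-3 did not pass the threshold after rescaling by the median of ratios (-0.33, limma adjusted p = 0.0747), and it did not pass when any 1 of the 6 untreated libraries was left out, with limma adjusted p between 0.0536 and 0.102. The difference between untreated and treated cells was not tested, because it is the difference of the treatment changes that chose the genes.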

How the results depend on the processing

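The number of genes that met the rule was 143 with the settings described and lay within 1.5 times of that under most alternatives. A pseudocount of 0.1 gave 239 genes, which include all 143, since it enlarges the changes of low genes. A threshold of 0.8 in the rule gave 242 and one of 1.2 gave 82. No filter gave 143, a minimum of 5 TPM gave 116, rescaling by the median of ratios 139, quantile normalization 133 (120 shared), and dropping genes with a 0 beside a library of at least 20 TPM 138. Leaving out each library in turn gave 135 to 156 genes, and leaving out a replicate number in all groups 136 to 159.

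An added minimum absolute log2 change of 1 lowered every count of calls, a stricter criterion on the same fit. It left 45 of the 97 genes that fell and 8 of the 24 that rose in untreated cells, and 45 of the 87 and 12 of the 32 in treated cells. Over all genes it left 450 of 6709 calls over time in untreated cells, 1919 of 8918 in treated cells, 1894 of 8968 at 6 h and 527 of 5985 at 24 h. Without each library in turn, 93 to 98 fell and 20 to 25 rose in untreated cells, and 85 to 91 fell and 30 to 34 rose in treated cells. Among named genes, the calls over time that changed side of the threshold in some setting included those of AURKB and E2F8 in treated cells, of B4GAT1, CDC25B, FGFR3, H1-3, METTL23 and SPAG16 in untreated cells, and of DNAI2 in both.

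The replicate numbers are shared by the groups, but the labels do not say that they pair cultures, and same-numbered untreated libraries at 6 h and 24 h deviated with correlations of -0.115 to 0.00352. Same-numbered treated libraries had 0.0619 to 0.0833, and each correlated best with its own number. Between treated and untreated libraries of the same number the correlations were 0.0383 to 0.0602 at 6 h and -0.000441 to 0.109 at 24 h. Each treated library correlated best with its own number there, except replicate 2 at 24 h. With the replicate block 98 fell and 25 rose in untreated cells, and 86 and 31 in treated cells. Depth is unknown, which limits what can be said of genes near 0 TPM.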
